A study of Drosophila melanogaster with 12 samples.

Results

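The data described here are the difference between the effect of the steroid hormone 20-hydroxyecdysone (20E) in the presence of cycloheximide and its effect in the absence of cycloheximide. For each probe set the difference was the log2 intensity of 20E+cycloheximide minus that of cycloheximide, less the log2 intensity of 20E minus that of the non-treated control. A difference above 0 means that the effect of 20E was higher with cycloheximide than without it, and a difference below 0 that it was lower. All 12 arrays of the series and all 13966 probe sets of 13966 entered the comparison.

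Organs were dissected from wandering larvae of the last instar of Drosophila melanogaster, about 8 h before pupariation, and cultured at 25 °C in wells that each held the organs of 8 animals. After 1 h of preincubation the medium was replaced, and the organs were kept for 6 h in 5 µM 20E with 85 µM cycloheximide, in 85 µM cycloheximide, in 5 µM 20E, or in medium alone (non-treated control). The methods name w1118, a white-eyed laboratory strain, and all 4 groups came from the same stage. The labels call the source whole animal, while their protocols describe dissected and cultured organs. Each group had 3 arrays from cultures that were harvested separately, so the p-values measure the spread between separate harvests. Each well mixed many organs, and in such RNA fewer cells of a type and less RNA per cell cannot be told apart.

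The ecdysone receptor EcR and its partner Ultraspiracle bind DNA together, and 20E is their ligand. In the larval salivary gland many of the early genes that 20E induces encode transcription factors, and in the classic model of the puffs early proteins induce late genes and turn down the early genes. Cycloheximide blocks protein synthesis, so the proteins of early genes are not made while it is present. It is also known to raise the level of some transcripts by itself, through slower decay. The comparison asks which transcripts responded to 20E to a different extent when no new protein could be made.

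Intensities are model-based expression values on a linear scale. The array medians lay between 113.6 and 118.5, values under 50 made up 15.7% to 17.5% of each array, and detection calls were not used here. The number of arrays limits the precision, and the median standard error of the difference was 0.13 on the log2 scale. Markers of 9 tissues were measured. Those that varied most between arrays of 1 group were testis transcripts, with summed intensities over 41 genes of 7780 to 12030 with 20E+cycloheximide, 7907 to 11190 with cycloheximide, 8876 to 11710 with 20E and 7698 to 10170 in the non-treated control, ranges that overlapped between all groups. The highest sum was on replicate 2 with 20E+cycloheximide and with 20E, and on replicate 1 with cycloheximide and in the non-treated control.

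Of 13966 probe sets, limma called 19 (0.136%) at a Benjamini-Hochberg adjusted p under 0.10, of which 11 (0.0788%) were higher and 8 (0.0573%) lower. The genes called higher included Osi2, a member of the Osiris family of insect genes, the zinc finger repressor gene Blimp-1, the nuclear receptor gene Eip75B, the EcR coactivator gene taiman (tai) and Cyp18a1, whose product inactivates 20E. The genes called lower included Gclm, which encodes a subunit of glutamate-cysteine ligase, the homeobox gene Drop (Dr), the nuclear import receptor gene Tnpo, the ribosomal RNA processing gene Rrp5 and Ppt2, a palmitoyl-protein thioesterase gene. Only Osi2, CG8654, Blimp-1 and CG11529 had an adjusted p under 0.05. Without adjustment, 1040 probe sets (7.45%) were higher and 1010 (7.23%) lower at p under 0.05. When the arrays were further normalized by cyclic loess, a choice made after the data were seen, the split of calls was 14 higher and 15 lower. Matched by replicate number within hormone (20E+cycloheximide with 20E, cycloheximide with non-treated control), 1104 probe sets were called, 362 higher and 742 lower. Matched within cycloheximide (20E+cycloheximide with cycloheximide, 20E with non-treated control), 3 were called. The labels name no such matching, so neither model was used for the calls given here. By deviations from the group mean, arrays correlated best with their own number more often within hormone than within cycloheximide. This held for 5 of 6 (20E+cycloheximide with 20E) and 6 of 6 arrays (cycloheximide with non-treated control). Within cycloheximide it held for 2 of 6 and 3 of 6. The 19 calls take no account of such matches.

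The spread of single arrays was described by pairing every 20E+cycloheximide array with every cycloheximide array, and every 20E array with every non-treated control array. All 9 differences of the pair with cycloheximide lay above all 9 without it for 481 probe sets (3.44%), and below them for 341 (2.44%). This held for all 19 called probe sets. They were called on the same arrays and the same difference, so this lends the calls no separate support. Of the 11 called higher, 4 had a positive effect of 20E in both conditions and 7 had a positive effect with cycloheximide and a negative one without it. Of the 8 called lower, 6 had a negative effect with cycloheximide and a positive one without it, while Tnpo had positive and CG8654 negative signs in both conditions. Signs were counted at any size, and some rested on overlapping arrays. Among these were Tnpo with cycloheximide (0.04), CG8654 without it (-0.0032) and Osi2 without it (-0.14).

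**Figure D1:**
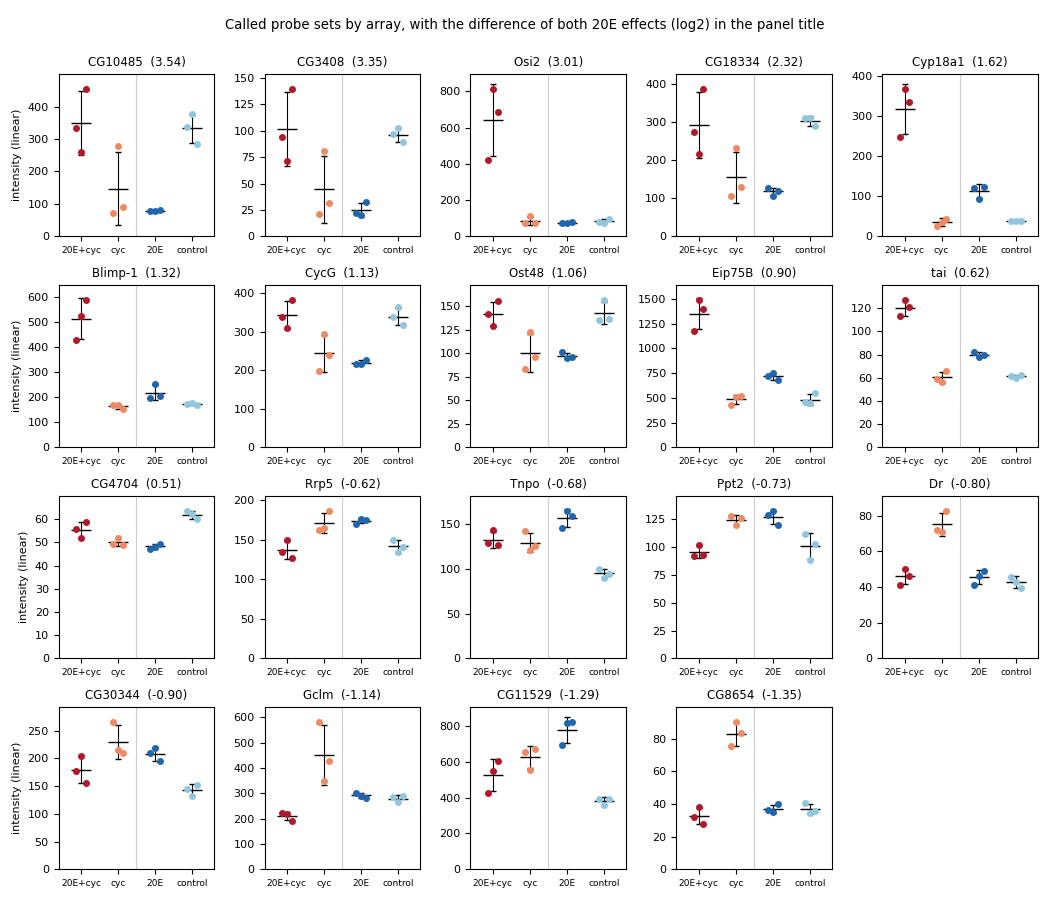
Linear intensity (y axes, each from 0) of the 19 called probe sets on every array, with 20E+cycloheximide and cycloheximide left of the grey line and 20E and non-treated control right of it. Points are single arrays, bars the mean and SD of 3 arrays, and the number beside each name is the difference of both effects on the log2 scale. Osi2 stood apart with 20E+cycloheximide only, while in CG10485, CG3408, CG18334, CycG and Ost48 1 cycloheximide array lay above the other two.

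Osi2 belongs to the Osiris genes, which encode membrane proteins with roles in the cuticle and the tracheal tubes. Its intensities were 423, 812 and 688 on the 20E+cycloheximide arrays, against 73.3, 112 and 72.8 on the cycloheximide arrays. They were 75.1, 71.2 and 80.1 on the 20E arrays, against 81.2, 74.6 and 93.9 on the non-treated control arrays. The 3 arrays with both compounds were thus the only ones above 112, and the other 3 groups overlapped. The difference of both effects was 3.01 (standard error 0.31, adjusted p = 0.00842). It kept its call without any 1 of the 12 arrays and under every other setting tried, with adjusted p-values of 0.00045 to 0.0472. The Osiris list held 23 measured genes, of which Osi2 alone was called, 19 had a positive difference and the list median was 0.10, against 0.015 over all probe sets and 52.8% of them positive. Since the difference moved with intensity, each list median is given with its decile value, the median over its genes of the all-probe-set median in each gene's intensity decile, which was 0.02 for the Osiris list. The next members by p were Osi12 at 0.25 (adjusted p = 0.351) and Osi23 at 0.22 (adjusted p = 0.355).

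Blimp-1 encodes a zinc finger transcriptional repressor of the 20E hierarchy that controls when other genes of that hierarchy turn on. Its intensities were 426, 525 and 587 on the 20E+cycloheximide arrays, against 167, 170.4 and 151 on the cycloheximide arrays. Without cycloheximide they were 196, 251 and 205 on the 20E arrays, against 174, 177 and 167 on the non-treated control arrays. All arrays with both compounds lay above those of the other 3 groups, and the 20E arrays lay above the non-treated control arrays by a smaller distance. The difference was 1.32 (standard error 0.17, adjusted p = 0.0239). Its call was lost without non-treated control replicate 2 (adjusted p = 0.130) and held without any other single array. It was also lost with replicate numbers matched within cycloheximide (adjusted p = 0.162 by limma).

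Eip75B encodes the nuclear receptor E75, a product of the early ecdysone puff of that name that represses other receptors of the cascade. It had intensities of 1175, 1489 and 1396 on the 20E+cycloheximide arrays, against 429, 509 and 515 on the cycloheximide arrays, and of 725, 749 and 682 on the 20E arrays, against 456, 446 and 548 on the non-treated control arrays. The 20E arrays lay above the non-treated control arrays, and those with both compounds lay above all others. The difference was 0.90 (standard error 0.16, adjusted p = 0.0943), near the threshold. Its probe set was named from the study's gene list, as the platform table paired no gene with it.

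Cyp18a1 encodes a cytochrome P450 that hydroxylates and so inactivates 20E. The intensities of its probe set were 248, 367 and 335 on the 20E+cycloheximide arrays, against 25.7, 36.8 and 44.2 on the cycloheximide arrays. They were 121, 92.7 and 124 on the 20E arrays, against 37.1, 38.5 and 39.1 on the non-treated control arrays. Both hormone groups lay above their controls with no overlap, and the levels of the control groups overlapped. The difference was 1.62 (standard error 0.27, adjusted p = 0.0867). Among 79 measured cytochrome P450 genes it was the only call, with 54 positive differences and a median of 0.08 (decile value 0.03).

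The gene tai encodes a coactivator that binds EcR. Its called probe set had intensities of 114, 127 and 121 on the 20E+cycloheximide arrays, against 58.8, 56.3 and 65.6 on the cycloheximide arrays, and of 82.0, 77.5 and 80.0 on the 20E arrays, against 61.6, 60.1 and 62.2 on the non-treated control arrays. The groups were ordered as for Eip75B, at a lower intensity. The difference was 0.62 (standard error 0.10, adjusted p = 0.0842). A second tai probe set, at 118 ± 6.96 with 20E+cycloheximide against 100.2 ± 3.65 with cycloheximide, and 109 ± 4.0 with 20E against 105 ± 2.30 in the non-treated control (mean and SD, n = 3), had a difference of 0.19 (standard error 0.09, adjusted p = 0.350), so the probe sets had the same sign and only the dimmer of them was called.

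**Figure D2:**
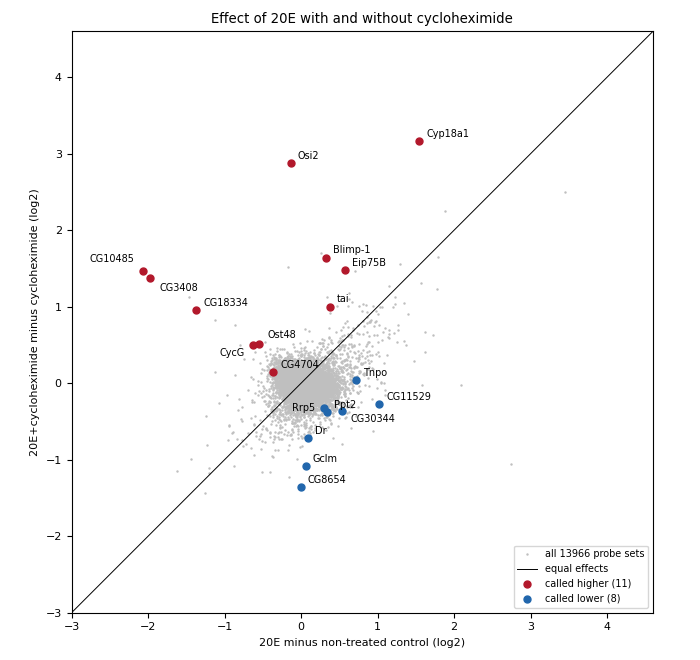
Effect of 20E on the log2 scale without cycloheximide (x axis, 20E minus non-treated control) and with it (y axis, 20E+cycloheximide minus cycloheximide) for all 13966 probe sets in grey, with the 11 called higher in red, the 8 called lower in blue and equal effects on the black line. Cyp18a1 lies at 3.17 with and 1.54 without cycloheximide and Osi2 at 2.88 and -0.14, while CG10485 and CG3408 lie at opposite signs.

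The remaining 6 probe sets called higher were CG10485, CG3408, CG18334, CycG, Ost48 and CG4704, and 5 of them shared an array pattern in which the 3 cycloheximide arrays were divided. CG10485, a gene of unknown role, had intensities of 334, 258 and 454 on the 20E+cycloheximide arrays, against 72.4, 278 and 91.2 on the cycloheximide arrays. They were 77.3, 77.9 and 81.0 on the 20E arrays, against 338, 376 and 284 on the non-treated control arrays. The levels were high with 20E+cycloheximide, in the non-treated control and on cycloheximide replicate 2, and low with 20E and on cycloheximide replicates 1 and 3. Over the 12 arrays, 7 other probe sets had a Pearson correlation with it above 0.95, between 0.961 and 0.988, which is a description of arrays and no test. Those called were CG3408 (0.988), CG18334 (0.986), CycG (0.985), which encodes cyclin G, and Ost48 (0.968), a subunit of the oligosaccharyltransferase. Those not called were the pseudogene CR11386, the antisense transcript asRNA:CR11538 and the ribosomal protein gene RpS6.

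The differences of this group were 3.54 (standard error 0.55, adjusted p = 0.077) for CG10485, 3.35 (standard error 0.56, adjusted p = 0.0867) for CG3408, 2.32 (standard error 0.36, adjusted p = 0.077) for CG18334, 1.13 (standard error 0.18, adjusted p = 0.077) for CycG and 1.06 (standard error 0.17, adjusted p = 0.0867) for Ost48. The intensities of CG3408 were 94.3, 70.9 and 139.6 with 20E+cycloheximide against 21.1, 80.5 and 31.7 with cycloheximide, and 21.9, 20.6 and 32.5 with 20E against 97.0, 103 and 89.3 in the non-treated control. Those of CG18334 were 272, 216 and 386 with 20E+cycloheximide against 105, 231 and 129 with cycloheximide, and 127, 107 and 119 with 20E against 309, 311 and 288 in the non-treated control. With a floor of 50 the difference of CG3408 was 1.68 (adjusted p = 0.172), and its call was lost. In both, cycloheximide replicate 2 was the highest array of its group, at levels met on the 20E+cycloheximide arrays. CycG had 337, 311 and 382 with 20E+cycloheximide against 198, 295 and 239.8 with cycloheximide, and 216, 215 and 227 with 20E against 338, 363 and 317 in the non-treated control. Ost48 had 141, 129 and 155 with 20E+cycloheximide against 83.2, 122 and 95.8 with cycloheximide, and 101, 94.6 and 96.5 with 20E against 136, 157 and 136 in the non-treated control. Here the same arrays were high and low, over a smaller range. Without cycloheximide replicate 2 all 5 stayed called, with differences of 3.89 for CG3408, 4.13 for CG10485, 2.65 for CG18334, 1.27 for CycG and 1.22 for Ost48. They also stayed called without 20E+cycloheximide replicate 2, but all 5 calls were lost without any 1 of the 10 other arrays. The adjusted p by limma then reached 0.243 for CG10485 and 0.29 for CG3408.

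For this group the platform table named no gene, and the names came from the study's list of probe sets. CG3408 and Ost48 were each measured by a second probe set. The second one of CG3408 had 64.8, 70.7 and 74.0 with 20E+cycloheximide against 71.4, 64.0 and 72.6 with cycloheximide, and 69.0, 62.9 and 78.7 with 20E against 68.3, 55.4 and 66.7 in the non-treated control, with a difference of -0.14 (standard error 0.15, adjusted p = 0.685). It did not share the pattern. The second one of Ost48 had 389, 342 and 353 with 20E+cycloheximide against 306, 348 and 284 with cycloheximide, and 321, 329 and 329.9 with 20E against 385, 362 and 399 in the non-treated control, with 0.44 (standard error 0.12, adjusted p = 0.201), of the same sign and smaller. The cause of the shared pattern was not tested.

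**Figure D3:**
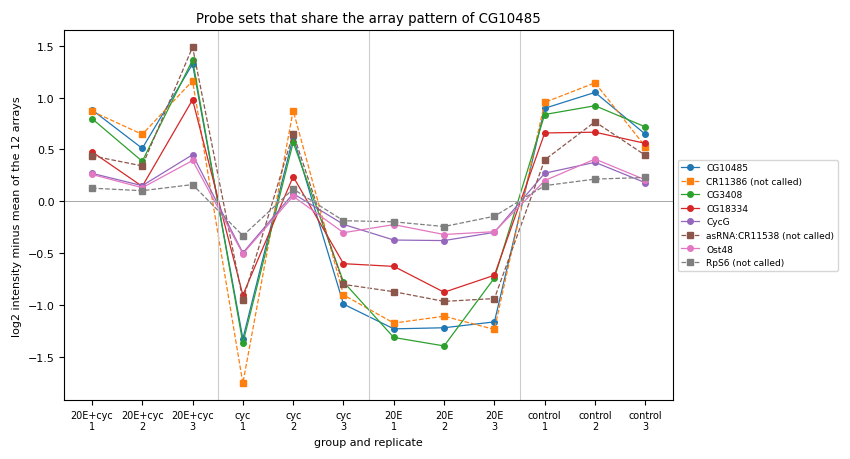
Log2 intensity minus the mean of the 12 arrays (y axis) for CG10485 and the 7 probe sets that correlate with it above 0.95, on each array by group and replicate (x axis), with called probe sets as solid lines and those not called as dashed lines. Cycloheximide replicate 2 lies with the 20E+cycloheximide and non-treated control arrays, and cycloheximide replicates 1 and 3 with the 20E arrays.

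CG4704 was dim. Its intensities were 55.6, 52.0 and 59.0 with 20E+cycloheximide against 49.5, 52.0 and 49.0 with cycloheximide, and 47.2, 48.1 and 49.5 with 20E against 63.6, 62.2 and 60.2 in the non-treated control. The non-treated control arrays were the highest, and the other 3 groups lay between 47.2 and 59.0. The difference was 0.51 (standard error 0.09, adjusted p = 0.0943), and it was the only called probe set that lost its call under cyclic loess normalization.

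Of the 8 probe sets called lower, CG8654, Gclm and Dr were highest with cycloheximide alone. CG8654 had intensities of 31.9, 38.0 and 27.9 on the 20E+cycloheximide arrays, against 75.3, 90.2 and 83.4 on the cycloheximide arrays. They were 36.1, 34.8 and 39.7 on the 20E arrays, against 40.6, 34.7 and 35.7 on the non-treated control arrays. With a floor of 50 its difference was -0.73, and it stayed called. Each cycloheximide array was at least 75.3, and the highest of the others was 40.6. The difference was -1.35 (standard error 0.16, adjusted p = 0.0198), and the call was lost without non-treated control replicate 2 (adjusted p = 0.111).

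Gclm encodes the modifier subunit of glutamate-cysteine ligase, which starts the synthesis of the antioxidant glutathione. It had 221, 218 and 191 on the 20E+cycloheximide arrays, against 581, 348 and 429 on the cycloheximide arrays. It had 303, 291 and 282 on the 20E arrays, against 285, 265 and 288 on the non-treated control arrays. The cycloheximide arrays were the highest, the 20E+cycloheximide arrays the lowest, and the 20E and non-treated control arrays lay between them and overlapped. The difference was -1.14 (standard error 0.20, adjusted p = 0.0943). Of 11 measured genes of glutathione synthesis and redox balance it was the only call, and 7 of them had a negative difference with a median of -0.11 (decile value -0.03).

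Dr encodes the homeodomain protein Drop, which patterns neural tissue, muscle and imaginal discs. Its intensities were 41.3, 50.2 and 46.1 with 20E+cycloheximide against 72.2, 70.6 and 82.5 with cycloheximide, and 41.0, 46.2 and 49.1 with 20E against 45.8, 42.9 and 39.2 in the non-treated control. Only the cycloheximide arrays stood apart. The difference was -0.80 (standard error 0.14, adjusted p = 0.0943). None of the 21 measured genes of the imaginal disc patterning list, which leaves out Dr, passed the threshold. At an unadjusted p under 0.05, 6 of them were lower and 0 higher, against 7.23% and 7.45% of all probe sets. Those with the smallest p were vestigial (vg), homothorax (hth) and wingless (wg), at -0.85, -0.58 and -0.38 (adjusted p = 0.208, 0.226 and 0.236).

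CG11529, CG30344, Tnpo, Ppt2 and Rrp5 had a positive effect of 20E in medium without cycloheximide and a smaller or negative one with cycloheximide. CG11529 had 425, 547 and 601 on the 20E+cycloheximide arrays, against 655, 555 and 671 on the cycloheximide arrays, and 694, 813 and 821 on the 20E arrays, against 393, 358 and 392 on the non-treated control arrays. The non-treated control arrays were the lowest and the 20E arrays the highest. The difference was -1.29 (standard error 0.18, adjusted p = 0.0383). CG30344 had 177, 205 and 156 with 20E+cycloheximide against 266, 216 and 210.2 with cycloheximide, and 209, 219.6 and 195 with 20E against 145, 132 and 152 in the non-treated control, with a difference of -0.90 (standard error 0.16, adjusted p = 0.0943). As for CG11529, the non-treated control arrays were the lowest.

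Tnpo encodes transportin, which carries proteins into the nucleus. It had 128, 143 and 127 with 20E+cycloheximide against 142, 121 and 125 with cycloheximide, and 145, 164 and 159 with 20E against 100.3, 90.1 and 94.6 in the non-treated control. The 20E arrays were the highest and the non-treated control arrays the lowest. The difference was -0.68 (standard error 0.12, adjusted p = 0.0908), and a second Tnpo probe set had -0.30 (standard error 0.11, adjusted p = 0.274). Ppt2, which encodes a lysosomal thioesterase, had 92.2, 102 and 93.0 with 20E+cycloheximide against 128, 119.9 and 126 with cycloheximide, and 129, 133 and 120.4 with 20E against 112, 88.4 and 102 in the non-treated control, with -0.73 (standard error 0.12, adjusted p = 0.0867). Rrp5, whose product processes pre-ribosomal RNA, had 134, 149.7 and 127 with 20E+cycloheximide against 163, 165 and 186 with cycloheximide, and 170.5, 177 and 175 with 20E against 149.8, 134 and 141 in the non-treated control, with -0.62 (standard error 0.11, adjusted p = 0.0943). In both, the cycloheximide and 20E arrays were above all 20E+cycloheximide and non-treated control arrays.

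Most calls did not hold with an array left out, a step that also lowers the number of arrays in a group. The number of called probe sets was 7, 274 and 5 without 20E+cycloheximide replicates 1, 2 and 3, 4, 49 and 5 without cycloheximide replicates 1, 2 and 3, 5, 4 and 4 without 20E replicates 1, 2 and 3, and 7, 1 and 3 without non-treated control replicates 1, 2 and 3. All 19 calls were kept without 20E+cycloheximide replicate 2 and without cycloheximide replicate 2. Each of the 10 other arrays ended the calls of CG10485, CG3408, CG18334, CycG, Ost48, CG4704, Tnpo, CG30344, Dr and Rrp5. Of these arrays 9 ended the calls of tai, which held without cycloheximide replicate 3, of Gclm, which held without cycloheximide replicate 1, of Ppt2, which held without non-treated control replicate 1, and of Eip75B, which held without 20E+cycloheximide replicate 1. The call of Cyp18a1 ended with 8 arrays and also held without 20E+cycloheximide replicate 1 and cycloheximide replicate 3. CG11529 lost its call without cycloheximide replicates 1 and 3, 20E replicates 2 and 3, and non-treated control replicates 2 and 3 (adjusted p up to 0.196). For 15 probe sets, leaving aside CG11529, Blimp-1 and CG8654, whose values are given above, the adjusted p with an array left out reached 0.243 to 0.315. No difference of the 19 changed sign. With an array left out the difference ran from 0.57 to 0.68 for tai and from -0.69 to -0.56 for Rrp5. For Gclm it ran from -1.32 to -0.95 and for CG10485 from 3.16 to 4.13.

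Of 15 genes taken from the study's text and gene lists, most of them regulators, Blimp-1, Eip75B and Cyp18a1 were called and 12 were not. Eip74EF, which encodes the ETS-domain factor E74, had 340.2, 584 and 441 with 20E+cycloheximide against 80.4, 75.1 and 80.5 with cycloheximide, and 296, 538 and 364 with 20E against 47.5, 33.1 and 28.0 in the non-treated control. The 20E+cycloheximide and 20E arrays overlapped, and the cycloheximide arrays lay above the non-treated control arrays. Its difference was -0.95 (95% interval -1.71 to -0.20), with an adjusted p of 0.263 by limma. Taken on linear group means it was 13.45, so its sign depended on the scale. The zinc finger gene Kr-h1 had 135, 147 and 90.8 with 20E+cycloheximide against 76.8, 67.9 and 63.9 with cycloheximide, and 69.6, 71.5 and 55.2 with 20E against 42.0, 32.7 and 30.5 in the non-treated control. Its difference was -0.09 (95% interval -0.64 to 0.46), with an adjusted p of 0.890, and its sign changed with a floor of 50 (0.44) and with log2 of the value plus 16 (0.02). On linear group means the difference of Kr-h1 was 24.56. For the nuclear receptor gene Eip78C the difference was -0.13 (95% interval -0.74 to 0.48), and for the nuclear receptor gene Hr3 it was 0.15 (95% interval -0.08 to 0.39). The Hr3 probe set had means of 88.4 with 20E+cycloheximide against 81.3 with cycloheximide, and 91.2 with 20E against 93.4 in the non-treated control. Its arrays overlapped in both comparisons, while the study lists the gene, as DHR3, as induced by 20E. Its value thus does not describe that induction.

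The difference was -0.20 (95% interval -0.46 to 0.07) for the HMG-box gene Sox14, -0.19 (95% interval -0.49 to 0.12) for the zinc finger gene cabut (cbt), -0.10 (95% interval -0.52 to 0.32) for the translational repressor gene brain tumor (brat) and -0.16 (95% interval -0.53 to 0.21) for CG11275. Their adjusted p-values were 0.473, 0.547, 0.836 and 0.667. These intervals do not show that the effects were equal. On linear group means the differences were above 0 for Sox14 (40.47), cbt (379.5) and brat (73.87), and -11.62 for CG11275. The signs of Eip78C and brat changed without 20E replicate 2, to 0.13 and 0.08.

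The bZIP gene vrille (vri) had 596, 966 and 647 with 20E+cycloheximide against 258, 279 and 247 with cycloheximide, and 337, 377 and 308 with 20E against 204, 198 and 222 in the non-treated control, with a difference of 0.75 (standard error 0.21, adjusted p = 0.209). The bHLH repressor gene hairy (hry) had 2131, 2618 and 2814 with 20E+cycloheximide against 1160, 1390 and 1453 with cycloheximide, and 729, 774 and 736 with 20E against 574, 525 and 633 in the non-treated control, with 0.54 (standard error 0.17, adjusted p = 0.226). In both genes each group that received cycloheximide lay above its counterpart without it. The gene extra macrochaetae (emc), which encodes an inhibitor of bHLH factors, had 861, 965 and 812 with 20E+cycloheximide against 1217, 988 and 1060 with cycloheximide, and 435, 536 and 483 with 20E against 385, 289.5 and 322 in the non-treated control. Its difference was -0.86 (standard error 0.17, adjusted p = 0.120), and over the other settings its adjusted p was 0.013 to 0.319. The nuclear receptor gene Hr4 had 244, 269 and 273 with 20E+cycloheximide against 111, 114 and 121 with cycloheximide, and 185, 202 and 182 with 20E against 110.0, 130.0 and 129.7 in the non-treated control. Every hormone array of Hr4 lay above every array without hormone, and the difference was 0.56 (standard error 0.11, adjusted p = 0.137). With replicate numbers matched within hormone, the adjusted p by limma was 0.0451 for vri, 0.0765 for hry, 0.013 for emc, 0.0308 for Hr4 and 0.0378 for Eip74EF. The probe set that the study assigns to Drosomycin-2, an antifungal peptide gene, had 22.6, 22.4 and 15.5 with 20E+cycloheximide against 66.0, 28.4 and 37.7 with cycloheximide, and 96.4, 220.2 and 44.6 with 20E against 23.6, 13.2 and 7.68 in the non-treated control, with -3.80 (standard error 0.71, adjusted p = 0.110). Over the other settings the difference ran from -4.37 without 20E replicate 3 to -1.16 with a floor of 50, and the adjusted p from 0.013 to 0.448. The platform table pairs it with several genes, and its levels reached below the floor of 10 on 1 array.

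By gene list, 17 ecdysone-related nuclear receptors held 1 call higher, 10 positive differences and a median of 0.09 (decile value 0.03). The 20 early regulators held 1 call higher (Blimp-1), 12 negative differences and a median of -0.09 (decile value 0.0063). Among the negative ones was the early puff gene Broad-Complex (br) at -0.80 (standard error 0.28, adjusted p = 0.263 by limma). The 13 genes listed as 20E-induced repressors and corepressors, a list that shares Blimp-1, Eip75B, vri, hry and br with those above, held 2 calls higher, 6 positive and 7 negative differences. The 12 L71 late genes held no call, 9 positive differences and a median of 0.12 (decile value 0.07), and the 12 genes of ecdysteroid synthesis and breakdown held the call of Cyp18a1 and a median of -0.04 (decile value 0.01). Of 19 secondary and tissue targets 13 were negative, with a median of -0.12 (decile value 0.0038). Of these 4 had an unadjusted p under 0.05, against 7.23% of all probe sets. Over all probe sets the median was 0.015, with quartiles of -0.13 and 0.14.

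Several lists without a call leaned below 0. Of 26 autophagy and cell death genes, 22 had a negative difference, 7 were lower and 2 higher at an unadjusted p under 0.05, against 7.23% and 7.45% of all probe sets, and the median was -0.18 (decile value 0.02). Among them were Atg13, of the kinase complex that starts autophagy, at -0.41 (standard error 0.12, adjusted p = 0.223), Atg18a at -0.27 (standard error 0.09, adjusted p = 0.245) and the cell death gene reaper (rpr) at -0.63 (standard error 0.23, adjusted p = 0.271). Atg16 had the opposite sign, at 0.42 (standard error 0.15, adjusted p = 0.263). The intensities of rpr were 57.6, 74.5 and 62.0 with 20E+cycloheximide against 117, 75.7 and 100.4 with cycloheximide, and 48.2, 58.4 and 60.6 with 20E against 63.3, 47.7 and 51.2 in the non-treated control. The cycloheximide arrays were the highest.

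Of 13 E(spl) complex and Bearded genes, among them many targets of Notch, 10 had a negative difference and the median was -0.26 (decile value -0.03), with no member at an unadjusted p under 0.05. E(spl)m2-BFM had 524, 338 and 510.3 with 20E+cycloheximide against 462, 443 and 488 with cycloheximide, and 222, 228 and 131 with 20E against 146, 130.2 and 104 in the non-treated control, with -0.63 (standard error 0.31, adjusted p = 0.361). Of 14 heat shock genes 12 were negative, with a median of -0.19 (decile value -0.09) and with Hsp68 at -0.64 (standard error 0.24, adjusted p = 0.274). Of 27 translation factor and tRNA synthetase genes 20 were negative, 6 of them at an unadjusted p under 0.05, against 7.23% of all probe sets. The median was -0.15 (decile value -0.03), with the release factor gene eRF1 at -0.61 (standard error 0.23, adjusted p = 0.274). Of 12 pteridine and purine enzyme genes 10 were negative, with a median of -0.14 (decile value 0.0063) and Paics at -0.78 (standard error 0.29, adjusted p = 0.272). Of 21 genes in the list named immediate early and JNK genes, which also holds other regulators such as emc, 14 were negative. The list median of -0.05, however, was near its decile value of -0.03. At an unadjusted p under 0.05, 4 were lower and 2 higher, against 7.23% and 7.45% of all probe sets. Those with the smallest p were emc as above, rhomboid (rho) at -0.72 (standard error 0.19, adjusted p = 0.201) and Jra, the fly Jun gene, at -0.62 (standard error 0.17, adjusted p = 0.208).

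Other lists leaned above 0 or were divided. Of 23 cuticle protein genes 15 were positive, with a median of 0.13 (decile value 0.0038) and Ccp84Ac at 0.52 (standard error 0.17, adjusted p = 0.237). Of 34 glutathione transferase genes 18 were positive, 6 of them and 1 negative gene at an unadjusted p under 0.05, against 7.45% and 7.23% of all probe sets. GstD2 had 295, 301 and 270.2 with 20E+cycloheximide against 379, 303 and 358 with cycloheximide, and 1137, 959 and 736 with 20E against 2308, 2097 and 1530 in the non-treated control, with 0.81 (standard error 0.24, adjusted p = 0.224). The arrays with cycloheximide were below all others, and the non-treated control arrays were the highest. The 27 ribosomal protein genes held 15 positive differences and a median of 0.001 (decile value -0.09), with RpS6, of the shared pattern above, at 0.66 (standard error 0.15, adjusted p = 0.172). Among the 15 genes of antimicrobial peptides 9 were positive, and Drsl5 had -1.61 (standard error 0.73, adjusted p = 0.337) with 395.7 on 20E replicate 2 against 56.2 and 139 on the other 20E arrays. Without 20E replicate 2 the difference of Drsl5 was -0.89, and without 20E replicate 1 it was -2.30. Of 10 circadian clock genes 5 were positive, with 4 higher and 1 lower at an unadjusted p under 0.05, against 7.45% and 7.23% of all probe sets. Among them cry had 0.36 (standard error 0.12, adjusted p = 0.236). Of 15 genes of cuticle tanning and melanisation 9 were negative, with a median of -0.03 (decile value 0.0038).

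**Figure D4:**
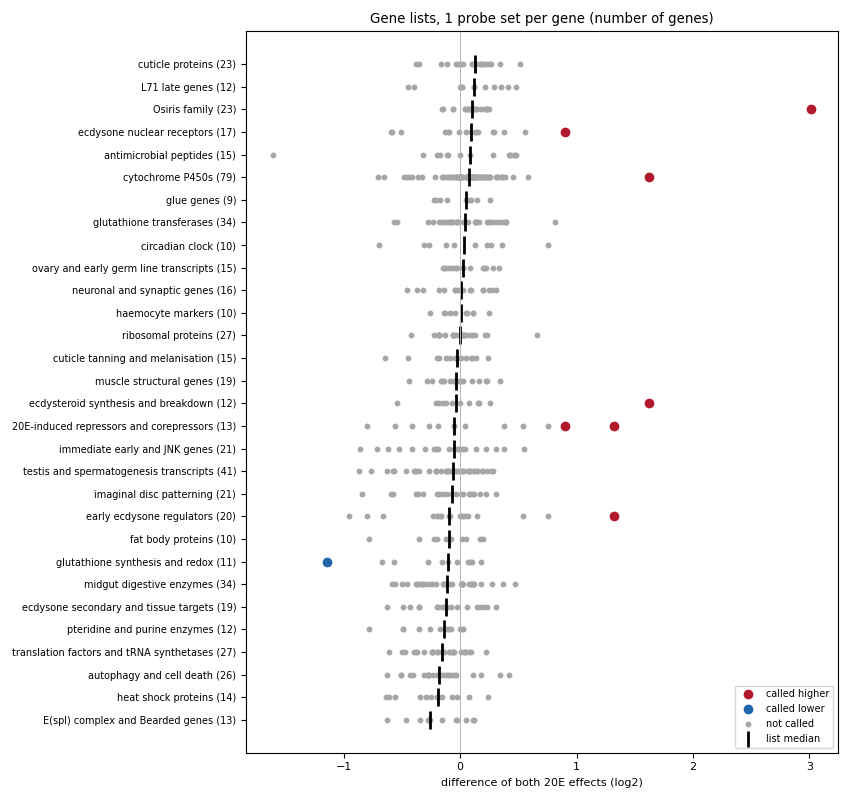
Difference of both effects on the log2 scale (x axis) for the measured genes of 30 lists (y axis, number of genes in parentheses), 1 probe set per gene, with list medians as black bars, called genes in red (higher) and blue (lower) and the others in grey. List medians run between -0.26 for E(spl) complex and Bearded genes and 0.13 for cuticle proteins.

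Of the marker lists, no member of fat body proteins, midgut enzymes, muscle, neuronal, testis, ovary, haemocyte, imaginal disc or glue genes was called, and the medians lay between -0.11 for midgut enzymes and 0.05 for glue genes, both with a decile value of -0.09. At an unadjusted p under 0.05, 2 of 34 midgut, 2 of 19 muscle and 6 of 21 imaginal disc genes were lower and 0 higher. In each direction 1 of 10 fat body and 1 of 16 neuronal genes were found, 1 of 10 haemocyte genes was higher, and no testis, ovary or glue gene passed. Over all probe sets 7.23% were lower and 7.45% higher. In the brightest decile, whose median is the decile value of the midgut and muscle lists, 168 of 1397 were lower and 42 higher. The fat body list, led by the lipoprotein gene apolpp at -0.78 (standard error 0.29, adjusted p = 0.267), had summed intensities of 23500 to 26320 with 20E+cycloheximide, 24910 to 27910 with cycloheximide, 24140 to 27500 with 20E and 24710 to 25960 in the non-treated control. With the testis level as a covariate, a choice made after the data were seen, all 19 calls were kept and 40 probe sets were called.

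The median difference moved with intensity. Probe sets were ordered by mean log2 intensity and divided into 10 deciles. In the dimmest decile, with a median intensity of 28.4, the median difference was 0.07, with 141 probe sets higher and 45 lower at an unadjusted p under 0.05. In the brightest decile, with a median intensity of 575, it was -0.09, with 42 higher and 168 lower. The called probe sets came from 8 of the 10 deciles. The uncalled probe sets above 0 with the smallest p were Lon, a mitochondrial protease gene, at 0.88 (standard error 0.16, adjusted p = 0.110), the zinc finger gene hamlet (ham) at 0.71 (standard error 0.13, adjusted p = 0.110), the gustatory receptor gene Gr66a at 0.79 (standard error 0.15, adjusted p = 0.110), CG11230 at 0.66 (standard error 0.13, adjusted p = 0.110), CR11386 at 3.53 (standard error 0.67, adjusted p = 0.110) and sxe2 at 0.77 (standard error 0.15, adjusted p = 0.110). Lon had 27.6, 27.2 and 20.7 with 20E+cycloheximide against 18.4, 21.6 and 16.8 with cycloheximide, and 16.7, 16.8 and 17.6 with 20E against 22.7, 24.2 and 24.2 in the non-treated control.

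Below 0, the uncalled probe sets with the smallest p were CG14957 at -1.33 (standard error 0.25, adjusted p = 0.110), steppke (step), which encodes an exchange factor of Arf proteins, at -0.73 (standard error 0.14, adjusted p = 0.110), CIAPIN1 at -0.69 (standard error 0.13, adjusted p = 0.110), CG14148 at -0.42 (standard error 0.08, adjusted p = 0.110), GNBP-like3 at -0.82 (standard error 0.16, adjusted p = 0.118) and the myosin light chain gene Mlc-c at -0.93 (standard error 0.18, adjusted p = 0.118). GNBP-like3 had 435, 594 and 494 with 20E+cycloheximide against 887, 997 and 808 with cycloheximide, and 359, 410.1 and 358 with 20E against 364, 385 and 385 in the non-treated control. Its cycloheximide arrays were the highest. CIAPIN1 had 293, 319 and 247 with 20E+cycloheximide against 272, 254 and 256 with cycloheximide, and 347, 399 and 364 with 20E against 219.6, 196 and 212 in the non-treated control. Its non-treated control arrays were the lowest and its 20E arrays the highest.

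**Figure D5:**
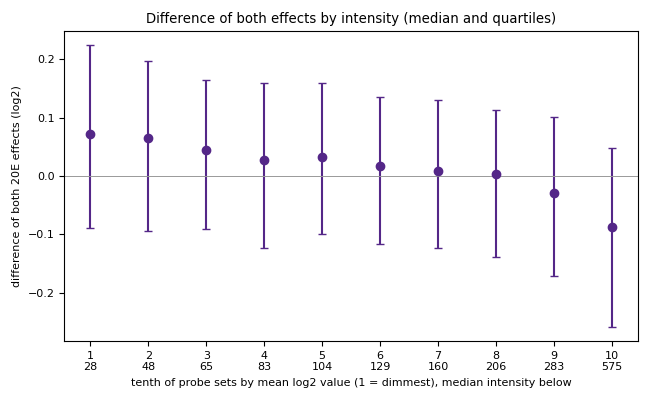
Median (points) and quartiles (bars) of the difference of both effects on the log2 scale (y axis) in 10 deciles of mean log2 intensity (x axis, 1 the dimmest, with the median intensity below each number). The median is 0.07 in the dimmest and -0.09 in the brightest decile.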

How the data were processed

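Transcript levels were measured with 12 Affymetrix Drosophila Genome Arrays, each hybridized with 1 sample, which the labels divide into 4 groups of 3. The authors normalized the arrays and computed expression values with dChip, and the deposited values are linear intensities, 1 for each of 13966 probe sets. The baseline array and the use of mismatch probes are not given in the sources used here. Array intensities carry no read depth, and the number of arrays limits the precision.

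Intensities under 10, of which there were 636, were set to 10 before log2 was taken, and no normalization was added to that of dChip. This floor shortens the differences of dim probe sets. A linear model with 1 mean per group was fitted with limma 3.58.1 under R 4.3.3, using lmFit, contrasts.fit and a trended eBayes, and the contrast was the difference of both effects of 20E over all 12 arrays. All 13966 two-sided p-values were adjusted together by the Benjamini-Hochberg method, and an adjusted p under 0.10 was called with no fold limit. The study's own test, SAM at a false discovery rate under 10%, was described for single comparisons only. Means are given with their SD over 3 arrays, and single arrays are listed in replicate order. Arrays of 1 group held 2 to 8 identical intensities per pair.

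The platform annotation gave 1 gene for 12442 probe sets and several for 327, 242 more were named from the study's supplementary gene lists by probe set, and 955 stayed unnamed. Coordinates and sequences are not given, since no genome was used here. The genes named are all called probe sets with 1 gene name, the 6 uncalled ones with the smallest p each way, up to 3 per list with the smallest p, and 15 genes, mostly regulatory, taken from the study's text and gene lists. The comparison, the genes, 30 gene lists and the alternatives were chosen with earlier results of these data known, and spellings in the lists were matched to the files afterwards. Lists are described by counts and medians, with 1 probe set per gene, that with the highest mean log2 value. Hr4, br, the second probe sets of called genes and the other uncalled probe sets with a difference of at least 1 were added after their values were seen.

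The alternatives were untrended eBayes, quantile normalization, a floor of 1 or of 50, 16 added to each value in place of a floor, centring on the array median, leaving out the dimmest probe sets, an adjusted p under 0.05, a fold limit of 1.3, log2 of arithmetic group means, the replicate number as a block, and each array left out in turn. Cyclic loess normalization and a testis covariate were added after seeing the data. On simulated data with independent noise of the spread of these arrays over 13966 probe sets, the model called 44.8% of 67 probe sets changed 1.5-fold, 82.1% of 67 changed 2-fold and 95.5% of 66 changed 3-fold. The deviations of real arrays of equal number correlated at up to 0.55 between groups, so these shares need not hold for the data.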

Additional observations from a re-analysis of the deposited data

Results flagged for a closer look

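The effect of 20E differed between organs with and without cycloheximide past the threshold for 19 probe sets, by the limma test of the difference itself. With groups of 3 arrays, no single array was tested for standing apart from its group.

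The differences (log2) of the probe sets with the shared array pattern were 3.54 for CG10485, 3.35 for CG3408, 2.32 for CG18334, 1.13 for CycG and 1.06 for Ost48. Each had 1 cycloheximide array, replicate 2, at or near the level of the 20E+cycloheximide arrays. Among genes of the 20E hierarchy or of hormone turnover, the differences were 1.62 for Cyp18a1, 1.32 for Blimp-1, 0.90 for Eip75B and 0.62 for tai. Osi2 had 3.01 and CG4704 had 0.51.

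Differences below 0 were -1.35 for CG8654, -1.29 for CG11529, -1.14 for Gclm, -0.90 for CG30344, -0.80 for Dr, -0.73 for Ppt2, -0.68 for Tnpo and -0.62 for Rrp5. On linear intensities all 19 had the same sign as on the log2 scale. Eip74EF, Kr-h1, Sox14, cbt and brat, which were not called, had opposite signs on these scales. A group mean under 50 was met in 5 of the 19.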

How the results depend on the processing

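The counts of 19 called probe sets, 11 higher and 8 lower, rested on the threshold and on the scale. With an adjusted p under 0.05 there were 4 (2 and 2), with a floor of 1 there were 30 (15 and 15), with arrays centred on their median 34 (18 and 16), and with cyclic loess 29 (14 and 15). Lower calls also numbered 14 with log2 of the value plus 16 and 14 with quantile normalization, of 28 in all each. The testis covariate gave 40 (15 and 25). With 1 array left out the count ran between 1 and 274, of which 1 to 112 were higher and 0 to 162 lower. At a floor of 50 there were 15 calls, and 8 of the 19 were kept. No call of the 19 changed sign under any setting. Among named genes that were not called, Kr-h1 changed sign with a floor of 50 (0.44) and log2 of the value plus 16 (0.021) and ran from -0.23 to 0.12 with 1 array left out, as did Eip78C (-0.30 to 0.13) and brat (-0.26 to 0.079). A floor of 50 gave no value for named probe sets whose arrays all lay at or under it. Over the named probe sets, array omissions included, 2600 values kept direction and side of the threshold, 181 no longer passed it, 140 newly passed it and 6 changed sign. The causes were not tested.

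As a paired analysis, the replicate number was entered as a replicate block. Over all 4 groups it gave 56 calls (24 higher and 32 lower). A replicate block within hormone, which paired 20E+cycloheximide with 20E and cycloheximide with non-treated control, gave 1104 (362 and 742), and one within cycloheximide, pairing 20E+cycloheximide with cycloheximide and 20E with non-treated control, gave 3 (2 and 1). Of the named probe sets not called, 45 passed with the block within hormone, among them emc (adjusted p = 0.013), Hr4 (0.0308), Eip74EF (0.0378) and vri (0.0451), while the block within cycloheximide ended 16 calls, that of Blimp-1 included (0.162). Deviations from the group mean of arrays of equal number correlated at 0.39, 0.55 and 0.09 between 20E+cycloheximide and 20E, at 0.41, 0.21 and 0.29 between cycloheximide and non-treated control, at 0.03, -0.12 and 0.27 between 20E+cycloheximide and cycloheximide, and at -0.03, 0.11 and 0.36 between 20E and non-treated control. An array was closest to that of its own number for 5 of 6, 6 of 6, 2 of 6 and 3 of 6 arrays of these pairs of groups. Only cycloheximide and non-treated control had all 3 correlations over 0.1, and the labels name no shared day or batch, so the numbers were not taken as pairs over the 4 groups. Own-number matches were more frequent within hormone than within cycloheximide, and the 19 calls take no account of them.

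Signal near background limits dim probe sets, for which detection calls were not used here.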

Other observations

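Of 48 probe sets with a difference of at least 1 in size on the log2 scale, 19 were above 0 and 29 below it, and 11 of the 48 were called. CG6865 had intensities of 126, 318 and 198 with 20E+cycloheximide against 54.7, 65.9 and 63.0 with cycloheximide, and 86.4, 76.5 and 80.1 with 20E against 64.3, 69.7 and 69.0 in the non-treated control, with a difference of 1.45 (standard error 0.34, adjusted p = 0.172) by limma. Its 20E+cycloheximide arrays varied widely and were the highest. CG14664 had 146, 355 and 270.0 with 20E+cycloheximide against 291, 215 and 234 with cycloheximide, and 313, 970.5 and 464 with 20E against 159.7, 102 and 114 in the non-treated control, with -2.11 (standard error 0.55, adjusted p = 0.195). The 20E group had the highest mean, and its arrays overlapped with those of 20E+cycloheximide.

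Below 0, scylla (scyl), a gene that restrains growth under stress, had 329, 394 and 375 with 20E+cycloheximide against 492, 415 and 599.6 with cycloheximide, and 331, 301 and 449.9 with 20E against 242, 204 and 269 in the non-treated control, with -1.03 (standard error 0.24, adjusted p = 0.169). The Lint-1 gene had 82.0 ± 13.8 with 20E+cycloheximide against 121 ± 16.4 with cycloheximide, and 87.1 ± 13.8 with 20E against 62.4 ± 13.2 in the non-treated control (mean and SD, n = 3), with -1.05 (standard error 0.24, adjusted p = 0.172). The cycloheximide group had the highest mean for both. CG13868 had 648 ± 122 with 20E+cycloheximide against 1500 ± 146 with cycloheximide, and 374 ± 67.9 with 20E against 417 ± 93.4 in the non-treated control (mean and SD, n = 3), with -1.07 (standard error 0.26, adjusted p = 0.172). The talin gene rhea had 459 ± 154 with 20E+cycloheximide against 502 ± 130.1 with cycloheximide, and 619 ± 78.2 with 20E against 293 ± 75.8 in the non-treated control, with -1.26 (standard error 0.35, adjusted p = 0.208). The non-treated control had the lowest mean for rhea. These genes were chosen for size after their values were seen, and none passed the threshold.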
